A study of Mus musculus with 12 samples.

Results

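Antioxidant enzymes that deal with superoxide and peroxide were followed across 4 mouse tissues: the superoxide dismutases Sod1, Sod2 and Sod3, catalase (Cat), the glutathione peroxidases Gpx1 and Gpx3, the peroxiredoxins Prdx1, Prdx3 and Prdx6, and the thioredoxin reductase Txnrd1. They are a fixed list of 10 genes, each read by its brightest probe set on the array, and 8 of the 10 had a probe set of their own among the 18193 genes measured. All 5 probe sets of Prdx1 are shared with a second gene, Gm21399, in the probe annotation, so Prdx1 has no value here. Prdx6 was not analysed here.

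RNA came from thymus, heart, lung and liver of mice that lack p53 (p53-/-), of mice that lack p66Shc (p66-/-) and of wild-type mice (WT). All mice were of the Sv/129 strain and 2 months old. No treatment is given for any group. p53 is a transcription factor activated by stress, and p66Shc is the isoform of the Shc1 adaptor that oxidizes cytochrome c in mitochondria and so makes H2O2. Each of the 12 arrays held RNA pooled from 4 mice, with 1 array for each tissue and genotype, so that mouse-to-mouse spread was not measured. The pools of a genotype may come from the same mice in the different tissues. Signals are on a log2 scale, on which a difference of 1 is a 2-fold change. In whole tissue, fewer cells of a type and less RNA per cell cannot be told apart.

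Superoxide dismutases turn superoxide into H2O2, in the cytosol (Sod1), the mitochondrial matrix (Sod2) and outside the cell (Sod3). H2O2 is then removed by catalase in peroxisomes, by glutathione peroxidases at the expense of glutathione, and by peroxiredoxins at the expense of thioredoxin, which Txnrd1 and its mitochondrial relative Txnrd2 recharge with NADPH. Liver is rich in peroxisomes and heart in mitochondria, where much of a cell's H2O2 is made.

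Cat, Gpx1 and Gpx3 are shown by promoter because Cat and Gpx1 shared a peak in liver and Gpx3 had its lowest signal there. Txnrd1 is shown because one of its start sites carries the letters of an antioxidant response element, the site used by the oxidative stress factor Nrf2. Each sequence is the 250 bases before an annotated start site from RefSeq (GRCm38.p6), 5′ to 3′ on the strand of the gene, with matches in capitals to CCAAT, to the GC box GGGCGG or to the antioxidant response element TGACNNNGC, on either strand. The 4 windows are chr2:103485154-103485403 (minus strand) for Cat, chr9:108338830-108339079 (plus strand) for Gpx1, chr11:54902604-54902853 (plus strand) for Gpx3 and chr10:82858956-82859205 (plus strand) for the second of 3 Txnrd1 start sites.
Cat: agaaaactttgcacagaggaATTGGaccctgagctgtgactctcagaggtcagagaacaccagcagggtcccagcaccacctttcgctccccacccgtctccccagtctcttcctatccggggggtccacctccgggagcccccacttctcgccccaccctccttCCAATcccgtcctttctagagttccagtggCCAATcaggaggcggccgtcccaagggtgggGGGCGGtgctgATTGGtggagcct
Gpx1: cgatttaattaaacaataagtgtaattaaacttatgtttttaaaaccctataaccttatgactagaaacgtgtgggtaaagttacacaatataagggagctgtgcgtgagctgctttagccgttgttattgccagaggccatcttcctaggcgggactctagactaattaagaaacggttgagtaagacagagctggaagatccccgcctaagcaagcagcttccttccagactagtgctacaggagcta
Gpx3: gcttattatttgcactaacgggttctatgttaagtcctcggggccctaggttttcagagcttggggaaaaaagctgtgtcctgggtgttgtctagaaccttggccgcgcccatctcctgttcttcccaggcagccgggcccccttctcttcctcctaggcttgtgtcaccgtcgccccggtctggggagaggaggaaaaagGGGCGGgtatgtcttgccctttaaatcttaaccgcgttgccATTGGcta
Txnrd1: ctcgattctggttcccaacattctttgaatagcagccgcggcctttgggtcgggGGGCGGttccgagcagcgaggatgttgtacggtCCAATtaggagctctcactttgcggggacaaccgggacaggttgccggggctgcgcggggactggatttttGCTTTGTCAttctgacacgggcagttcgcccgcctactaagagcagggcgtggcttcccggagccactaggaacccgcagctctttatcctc
The Cat window held 4 CCAAT matches and 1 GC box in 62.0% G and C bases. The Gpx1 window held none of these motifs in 42.0% G and C bases, and the Gpx3 window held 1 CCAAT match and 1 GC box in 55.2%. Of 32851 mouse promoter windows of the same length, 33.8% held CCAAT, 32.7% held GGGCGG and 10.2% held TGACNNNGC. TGACNNNGC also occurred before Sod1 and Prdx1, and no window of the 8 listed genes with an annotated promoter held the p53 half-site, which 7.13% of all windows held. These are matches of letters and were not tested for binding.

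Most of the enzymes differed strongly between tissues. The tissue means of 7 of the 8 genes spanned 2-fold or more, against 40.4% of all genes, and the median span was 2.66 on the log2 scale, against 0.78 for all genes. Each tissue was set against the mean of the other 3 with limma, with genotype in the fit, and a gene was called at an adjusted p below 0.05 and a difference of at least 2-fold. In thymus 0 of the 8 genes were called higher and 3 lower, where 7.11% and 8.56% of all genes were. In heart 3 were higher and 3 lower, against 5.04% and 9.85% of all genes. In lung 2 were higher and 1 lower, against 9.25% and 3.97%, and in liver 3 were higher and 1 lower, against 8.33% and 8.75%. The sets of tissue contrasts share arrays and are not independent of one another.

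**Figure D1:**
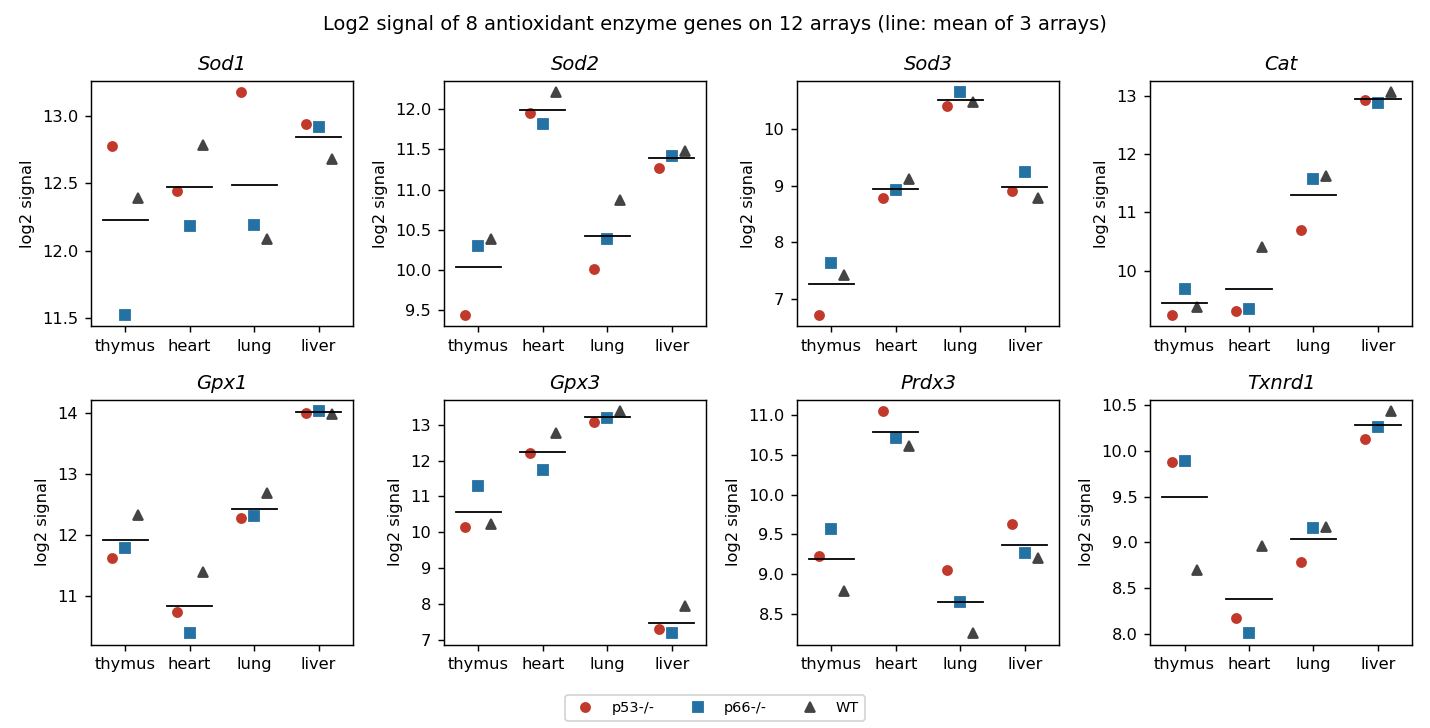
Log2 signal (y axis) of 8 antioxidant enzyme genes in thymus, heart, lung and liver (x axis), with 1 point per array, coloured by genotype, and a line at the mean of the 3 arrays. Cat and Gpx1 were highest on the 3 liver arrays and Gpx3 lowest there, while the tissues of Sod1 overlapped; the axes differ between panels, and levels are comparable within a gene only.

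Sod1, the copper and zinc enzyme of the cytosol, was the most even of the 8. Its signal was 12.78, 11.52 and 12.39 in p53-/-, p66-/- and WT thymus, 12.44, 12.18 and 12.78 in p53-/-, p66-/- and WT heart, 13.18, 12.19 and 12.09 in p53-/-, p66-/- and WT lung, and 12.94, 12.91 and 12.68 in p53-/-, p66-/- and WT liver. The tissue means spanned 0.62, every tissue overlapped the rest, and no tissue was called, with adjusted p between 0.167 and 0.927. A second bright probe set of Sod1, of a type that can bind several related transcripts, separated the tissues more. It was highest in liver, by 1.01 over the other tissues (limma adjusted p = 0.000875 with all probe sets in the fit), and lowest in heart, at -0.92 (adjusted p = 0.00196).

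Sod2, the manganese enzyme of mitochondria, was highest in heart. Its signal was 11.95, 11.82 and 12.21 in p53-/-, p66-/- and WT heart, 11.27, 11.42 and 11.49 in p53-/-, p66-/- and WT liver, 10.02, 10.39 and 10.87 in p53-/-, p66-/- and WT lung, and 9.45, 10.30 and 10.39 in p53-/-, p66-/- and WT thymus. All 3 heart arrays lay above all others, and heart exceeded the mean of the other tissues by 1.37 ± 0.16 (SE, 2.59-fold, limma adjusted p = 0.000104). The thymus difference was -1.23 ± 0.16 (adjusted p = 0.000204). Heart differed from liver (adjusted p = 0.0419) and liver from lung (adjusted p = 0.00327), while lung and thymus did not pass (adjusted p = 0.195). The other 3 probe sets of Sod2 were also highest in heart, by 0.92 to 1.70. The thymus call was less even, since the second probe set gave -0.98 there, just under 2-fold, and the dimmest was lowest in lung, with -0.23 in thymus (adjusted p = 0.183).

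Sod3, the secreted dismutase, was highest in lung. Its signal was 10.41, 10.66 and 10.49 in p53-/-, p66-/- and WT lung, 8.91, 9.25 and 8.79 in p53-/-, p66-/- and WT liver, 8.78, 8.93 and 9.11 in p53-/-, p66-/- and WT heart, and 6.72, 7.64 and 7.42 in p53-/-, p66-/- and WT thymus. Lung exceeded the other tissues by 2.12 ± 0.15 (SE, 4.36-fold, limma adjusted p = 3.77e-06), and the thymus difference was -2.22 ± 0.15 (adjusted p = 4.21e-06). Neither the lung nor the thymus arrays overlapped those of another tissue, while liver and heart were interleaved (adjusted p = 0.886). The second Sod3 probe set had the same highest and lowest tissue, with 1.85 in lung and -1.85 in thymus.

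Catalase was highest in liver. Its signal was 12.92, 12.87 and 13.06 in p53-/-, p66-/- and WT liver, 10.69, 11.57 and 11.62 in p53-/-, p66-/- and WT lung, 9.30, 9.34 and 10.40 in p53-/-, p66-/- and WT heart, and 9.24, 9.69 and 9.38 in p53-/-, p66-/- and WT thymus. Liver exceeded the other tissues by 2.81 ± 0.21 (SE, 7.02-fold, limma adjusted p = 2.02e-06), with no overlap. Heart (-1.55 ± 0.21, adjusted p = 0.000274) and thymus (-1.87 ± 0.21, adjusted p = 7.02e-05) were lower, and they did not differ from each other beyond the spread of the fit (adjusted p = 0.496). Lung lay between liver and heart and differed from both (adjusted p = 0.000518 and 0.000846). The hepatocyte marker list averaged 7.14, 9.84 and 10.85 on the p53-/-, p66-/- and WT lung arrays, in the same order as the Cat signals in lung, and its part in them was not tested. The second Cat probe set was 3.42 higher in liver than in the other tissues. It read 10.41, 10.78 and 10.65 in p53-/-, p66-/- and WT lung, which is not the order of the hepatocyte list.

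Gpx1, the abundant intracellular glutathione peroxidase, was also highest in liver, but its lowest tissue was heart. The signal was 14.00, 14.04 and 13.99 in p53-/-, p66-/- and WT liver, 12.27, 12.31 and 12.70 in p53-/-, p66-/- and WT lung, 11.62, 11.79 and 12.32 in p53-/-, p66-/- and WT thymus, and 10.73, 10.38 and 11.39 in p53-/-, p66-/- and WT heart. The liver arrays lay close together (SD 0.03, n = 3), and liver exceeded the other tissues by 2.29 ± 0.16 (SE, 4.89-fold, limma adjusted p = 1.17e-06). Heart was lower, at -1.95 ± 0.16 (adjusted p = 8.8e-06), and did not overlap another tissue. Lung and thymus did not pass against each other (adjusted p = 0.0807), and thymus differed from heart (adjusted p = 0.00192).

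Gpx3, the secreted glutathione peroxidase of plasma, had the widest span of the 8 genes and ran opposite to Gpx1 in liver. Its signal was 13.07, 13.19 and 13.39 in p53-/-, p66-/- and WT lung, 12.21, 11.73 and 12.78 in p53-/-, p66-/- and WT heart, 10.15, 11.28 and 10.23 in p53-/-, p66-/- and WT thymus, and 7.31, 7.18 and 7.95 in p53-/-, p66-/- and WT liver. The 4 tissues did not overlap. Lung was higher than the other tissues by 3.13 ± 0.27 (SE, adjusted p = 1.17e-05) and heart by 1.82 ± 0.27 (adjusted p = 0.00049), and liver was lower, at -4.52 ± 0.27 (23.0-fold, limma adjusted p = 3.54e-07). Every neighbouring pair of tissues differed, with adjusted p of 0.0413 for lung and heart, 0.00296 for heart and thymus and 4.03e-05 for thymus and liver. The span between lung and liver was 53.3-fold. Gpx1, Gpx3 and Prdx3 each rest on a single probe set.

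**Figure D2:**
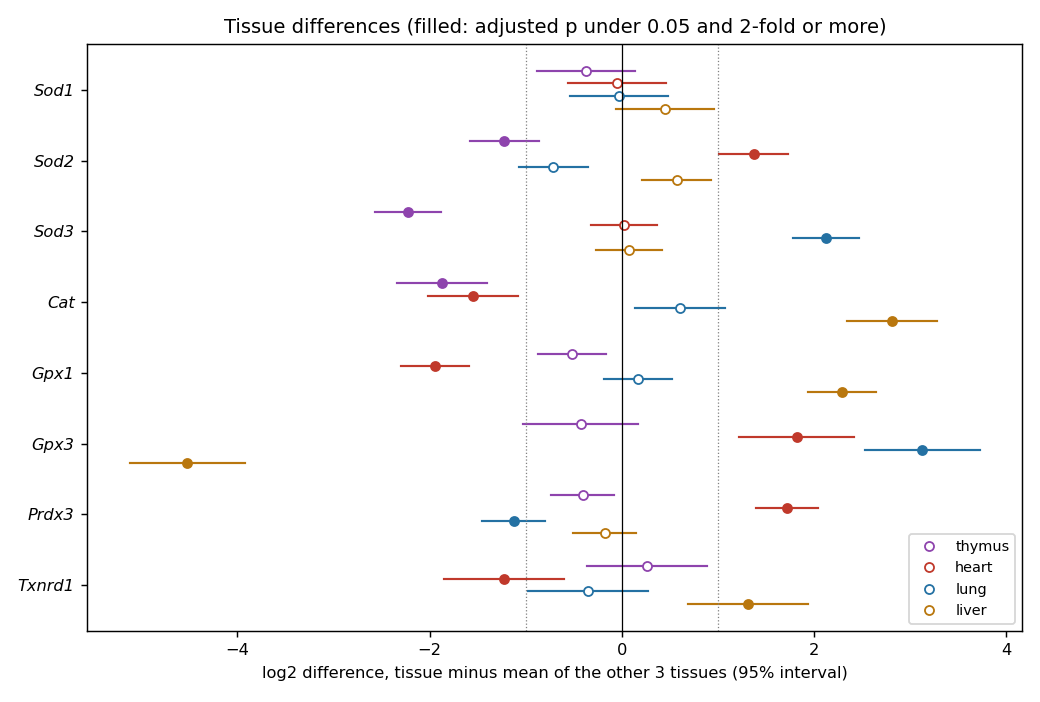
Difference of each tissue from the mean of the other 3 tissues (x axis, log2) for 8 genes (rows), with 95% intervals from limma over 12 arrays. Filled points passed an adjusted p of 0.05 at 2-fold or more; liver lay at -4.52 for Gpx3 and at 2.81 and 2.29 for Cat and Gpx1.

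Prdx3, the peroxiredoxin of mitochondria, was highest in heart, as Sod2 was. The signal was 11.05, 10.71 and 10.60 in p53-/-, p66-/- and WT heart, 9.63, 9.27 and 9.20 in p53-/-, p66-/- and WT liver, 9.23, 9.56 and 8.79 in p53-/-, p66-/- and WT thymus, and 9.05, 8.65 and 8.26 in p53-/-, p66-/- and WT lung. Heart exceeded the other tissues by 1.72 ± 0.15 (SE, 3.29-fold, limma adjusted p = 1.21e-05) with no overlap, and lung was lower, at -1.13 ± 0.15 (adjusted p = 0.000205). Liver and thymus (adjusted p = 0.554) and thymus and lung (adjusted p = 0.0511) did not pass against each other.

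Txnrd1, the cytosolic thioredoxin reductase, was higher in liver by 1.31 ± 0.28 (SE, 2.48-fold, limma adjusted p = 0.00413) and lower in heart, at -1.22 ± 0.28 (adjusted p = 0.00727). Its signal was 10.14, 10.27 and 10.44 in p53-/-, p66-/- and WT liver, 9.88, 9.89 and 8.70 in p53-/-, p66-/- and WT thymus, 8.78, 9.15 and 9.16 in p53-/-, p66-/- and WT lung, and 8.17, 8.01 and 8.96 in p53-/-, p66-/- and WT heart. The liver arrays lay above all others, the WT heart array lay within the lung range, and no neighbouring pair of tissues passed. The heart call was lost without the p53-/- heart array (-1.12, adjusted p = 0.0572) or without the p66-/- heart array (-0.95, adjusted p = 0.0765), and fell just under 2-fold with quantile normalization repeated (-0.98). The second Txnrd1 probe set, which was dimmer, gave 0.32 in heart and 0.26 in liver (adjusted p = 0.136 and 0.281).

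**Figure D3:**
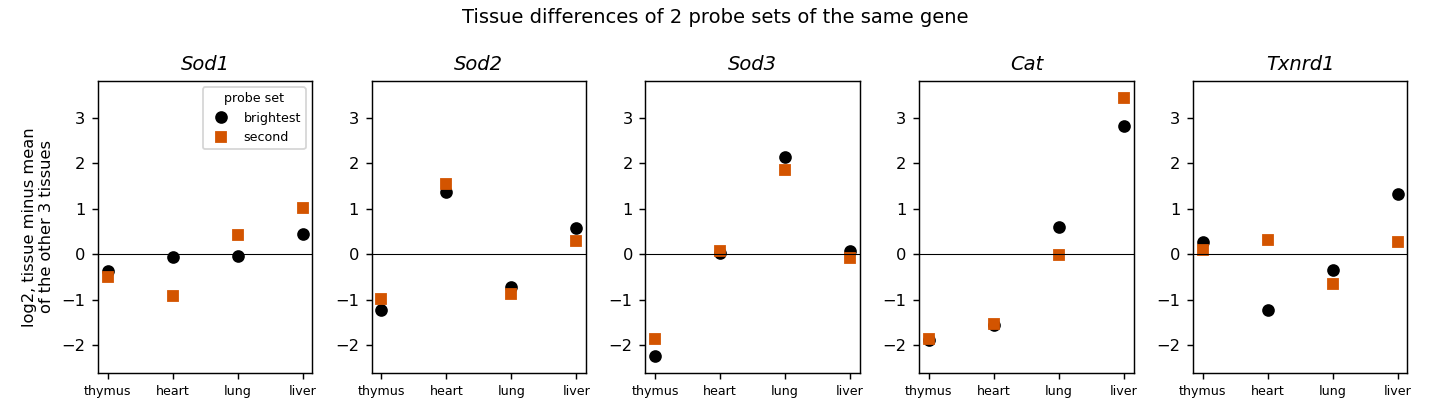
Difference of each tissue from the mean of the other 3 (y axis, log2) for the brightest probe set (circles) and the second (squares) of the 5 genes with more than 1 probe set. Sod2, Sod3 and Cat kept their highest and lowest tissue, while for Txnrd1 the squares sat at 0.32 in heart and 0.26 in liver.

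Of the 24 neighbouring tissue pairs over the 8 genes, 12 passed an adjusted p of 0.05. Among all genes, that threshold was passed by 34.3% between thymus and heart, 25.8% between thymus and lung, 32.8% between thymus and liver, 36.2% between heart and lung, 30.5% between heart and liver and 31.1% between lung and liver. Over the 12 arrays, Cat and Gpx1 followed each other closely (r = 0.90), Sod2 and Prdx3 less so (r = 0.67), and Gpx1 and Gpx3 ran opposite (r = -0.69). These coefficients describe 12 points that share tissues and arrays. Among all genes at or above the median signal, the pattern of Cat was most like those of Creg1 and Fabp1 (r = 0.99 each), that of Gpx1 like Dnase2a and 4931406C07Rik (r = 0.99 each), and that of Gpx3 like Gsn and Mgp (r = 0.99 each). Sod3 was most like Epas1 (r = 0.99) and Ptprb (r = 0.98). Sod2 was most like Tmem126a (r = 0.98) and Pdk2 (r = 0.97), and Prdx3 like Atp5c1 (r = 0.98) and Ndufa4 (r = 0.97). Txnrd1 was most like Lipa (r = 0.98) and Hes6 (r = 0.97), and Sod1 like Jmjd8 (r = 0.86) and Zhx3 (r = 0.80), the weakest likeness of the 8.

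Other genes of thiol and glutathione metabolism and of the Nrf2 response, 30 of 32 listed, were tested in the same contrasts. Thymus had 1 higher and 4 lower, heart 4 higher and 6 lower, lung 4 higher and 1 lower, and liver 6 higher and 3 lower. Of all genes, thymus had 7.11% higher and 8.56% lower, heart 5.04% higher and 9.85% lower, lung 9.25% higher and 3.97% lower, and liver 8.33% higher and 8.75% lower. Their median differences lay between -0.23 and 0.08, against -0.12 to 0.07 for all genes. Gclc and Gclm, the subunits of the enzyme that limits glutathione synthesis, had tissue means of 11.69 and 12.31 in liver and 6.96 and 8.91 in heart. Ccs, the copper chaperone of Sod1, had a mean of 11.16 in liver and 8.15 to 8.68 in the other tissues. Gpx8, a peroxidase of the endoplasmic reticulum, had 9.29 in lung and 5.51 in liver. Of 15 genes whose products make H2O2 or superoxide, 12 were measured, with 2 higher and 4 lower in thymus, 0 higher and 3 lower in heart, 5 higher and 2 lower in lung, and 4 higher and 2 lower in liver, against the same shares of all genes. Hao1, a peroxisomal oxidase that makes H2O2, had a mean of 11.29 in liver and 4.69 to 5.33 elsewhere. Maob, the mitochondrial monoamine oxidase, had 11.39 in liver and 6.14 in thymus. Nox4, an NADPH oxidase that releases H2O2, had 9.09 in liver, 8.99 in lung and 4.92 in thymus. Cyba, a subunit of the phagocyte oxidase, had 11.12 in thymus and 7.74 in liver.

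The question of the knock-outs was whether loss of p53 or of p66Shc shifted these enzymes. Shc1, which encodes p66Shc together with its shorter isoforms, read 8.82, 9.20 and 9.09 in p53-/-, p66-/- and WT thymus, 8.91, 9.37 and 8.93 in p53-/-, p66-/- and WT heart, 9.09, 9.83 and 8.57 in p53-/-, p66-/- and WT lung, and 9.31, 9.14 and 9.01 in p53-/-, p66-/- and WT liver. No probe set is known here to read the p66 part of the transcript alone, so Shc1 checks no label. The transcript of p53 itself was not analysed here. Both knock-outs were set against the same WT arrays.

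Several arrays stood apart before any enzyme was considered. The labelled tissues carried their markers, since all 9 thymocyte, 10 cardiomyocyte and 10 hepatocyte markers measured and 8 of the 9 lung epithelium markers were called higher in their own tissue. On the WT thymus array, 10 salivary gland genes averaged 14.15, with all 10 above the array median, while they averaged 4.93 and 5.06 on the p53-/- and p66-/- thymus arrays. They averaged 8.36 on the WT heart array and 5.13 and 5.42 on the p53-/- and p66-/- heart arrays. Skeletal muscle genes averaged 9.50 in p53-/- thymus, 6.45 in p66-/- thymus and 6.64 in WT thymus. The 12 array medians lay between 6.23 and 6.42, and arrays of a tissue correlated with r of at least 0.92.

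Across tissues, 0 of the 8 genes were called in p53-/- against WT, where 0.0055% of all genes were, and 0 in p66-/- against WT, where 0% were. With limma at an unadjusted p below 0.05, 4 of the 8 passed in p53-/- against 10.3% of all genes, and 1 of the 8 in p66-/- against 3.94%. The lowest adjusted p of any gene was 0.0208 in p53-/- (Hspa1b, a heat shock gene named after its value was seen, -3.20 ± 0.31) and 0.88 in p66-/-. No antioxidant enzyme passed by genotype in this design. The 95% intervals given for the differences are for single genes and are not adjusted for the number of genes, so some exclude 0.

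Prdx3 had the lowest unadjusted p of the 8 in p53-/- against WT. Its signal was 0.44 higher in p53-/- than in WT thymus, 0.45 in heart, 0.79 in lung and 0.43 in liver, with a fitted difference of 0.53 ± 0.16 (SE, 95% interval 0.18 to 0.87, limma adjusted p = 0.329, higher in 4 of 4 tissues). In p66-/- against WT its difference was 0.33 ± 0.16 (interval -0.01 to 0.68, adjusted p = 1, higher in 4 of 4 tissues). Sod2, which shares the mitochondrion with Prdx3, had a fitted difference of -0.57 ± 0.17 in p53-/- (interval -0.95 to -0.19, adjusted p = 0.334, lower in 4 of 4 tissues) and of -0.26 ± 0.17 in p66-/- (interval -0.64 to 0.12, adjusted p = 1, lower in 4 of 4 tissues). Neither gene passed the test in either knock-out. By the second Sod2 probe set, neither knock-out was below WT in all 4 tissues, and the p53-/- difference was -0.30. That probe set read 11.08, 11.27 and 11.03 in p53-/-, p66-/- and WT liver and 10.11, 10.41 and 10.25 in lung. The third Sod2 probe set was lower than WT in every tissue in both knock-outs, and the dimmest was not.

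Catalase differed by -0.58 ± 0.22 in p53-/- (interval -1.07 to -0.08, limma adjusted p = 0.425, lower in 4 of 4 tissues), most of it in heart (-1.10) and lung (-0.92). In p66-/- it differed by -0.25 ± 0.22 (interval -0.74 to 0.25, adjusted p = 1, lower in 3 of 4 tissues). The second Cat probe set was also lower in p53-/- in every tissue (-0.39), but in lung it read 10.41 in p53-/- and 10.65 in WT. In p66-/- it was above WT in lung (10.78 and 10.65) and thymus (9.41 and 9.33) and below it in heart and liver. Gpx1 differed by -0.44 ± 0.17 in p53-/- (adjusted p = 0.416) and by -0.47 ± 0.17 in p66-/- (interval -0.85 to -0.10, adjusted p = 1), lower in 3 of 4 tissues in each. In liver, where Gpx1 was highest, its differences were 0.01 in p53-/- and 0.05 in p66-/-. Gpx3 differed by -0.41 ± 0.29 in p53-/- (adjusted p = 0.643) and -0.24 ± 0.29 in p66-/- (adjusted p = 1). Of the remaining genes, Sod1 differed by 0.35 ± 0.24 in p53-/- and -0.28 ± 0.24 in p66-/-, Sod3 by -0.25 ± 0.16 in p53-/- and 0.17 ± 0.16 in p66-/-, and Txnrd1 by -0.07 ± 0.30 in p53-/- and 0.01 ± 0.30 in p66-/-. Adjusted p for these was 0.619 or above.

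**Figure D4:**
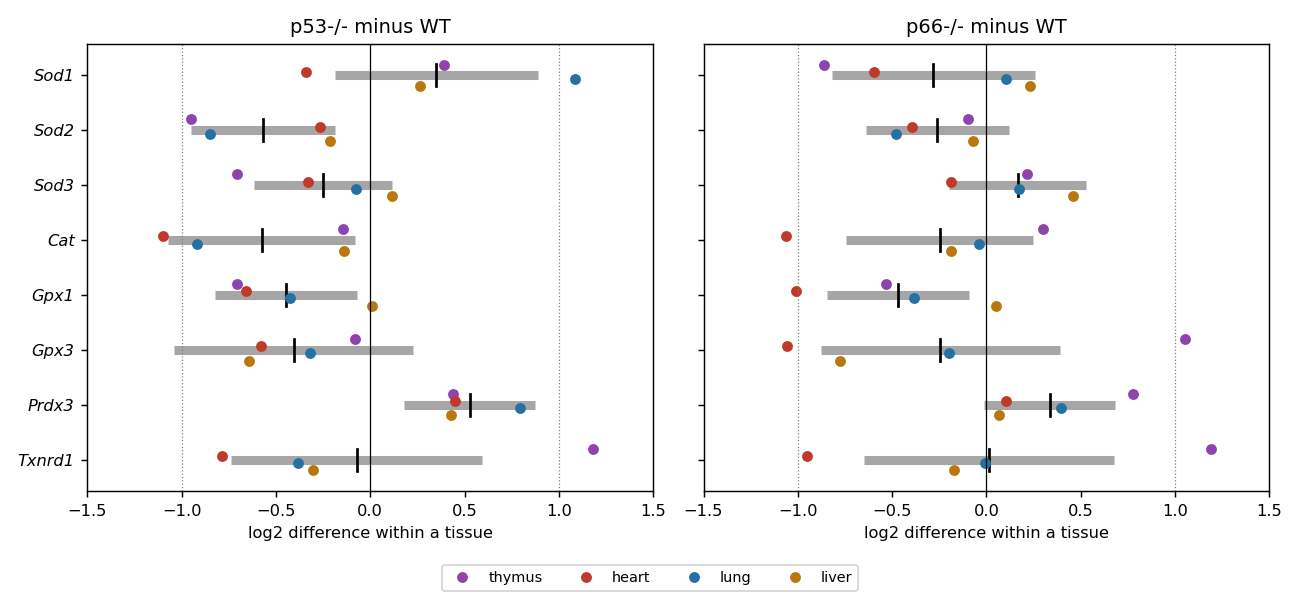
Log2 difference of p53-/- minus WT (left) and p66-/- minus WT (right) in each tissue (points) for 8 genes (rows), with the fitted difference over 4 tissues (tick) and its 95% interval (grey bar). Dotted lines mark 2-fold; Prdx3 lay to the right of 0 in all 4 tissues in both panels, and no gene passed the adjusted threshold.

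Set directly against p66-/-, p53-/- samples had 0 called genes among the 8 and 0% among all genes. Sod1 was higher in p53-/- than in p66-/- in 4 of 4 tissues (0.63 ± 0.24, interval 0.09 to 1.17, limma adjusted p = 0.937), and Sod3 was lower in 4 of 4 (-0.42 ± 0.16, interval -0.78 to -0.05, adjusted p = 0.937). At an unadjusted p below 0.05 these 2 of the 8 passed, and 4.12% of all genes. The second Sod1 probe set was also higher in p53-/- than in p66-/- in every tissue. The second Sod3 probe set turned the other way and was higher in p53-/- in every tissue. It read 6.01 and 5.64 in p53-/- and p66-/- thymus and 7.48 and 7.26 in heart. In lung it read 9.20 and 8.99, and in liver 7.46 and 7.40.

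Within a tissue, each knock-out was 1 array against 1, with no replicate and no test. In heart the enzymes lay mostly below WT, and their median stood at -0.46 in p53-/- hearts and at -0.77 in p66-/- hearts, where the medians of all genes were 0.03 and 0.00. Cat read 9.30 and 9.34 in p53-/- and p66-/- heart and 10.40 in WT heart, and was the only one of the 8 at least 2-fold lower in p53-/- heart (-1.10), where 2.08% of all genes were. In p66-/- heart, 3 of the 8 were at least 2-fold lower, Cat (-1.06), Gpx3 (-1.06) and Gpx1 (-1.01), against 1.67% of all genes. With quantile normalization repeated, the 3 differences in p66-/- heart were -0.70, -0.59 and -0.55, and with cyclic loess -0.71, -0.71 and -0.62, so that none reached 2-fold. Cat in p53-/- heart was at -0.82 and -0.81 under these scalings, and the medians of the 8 genes were -0.20 and -0.24 in p53-/- and -0.38 and -0.41 in p66-/- hearts. Beside the salivary gland genes, hepatocyte genes averaged 6.72, 7.43 and 7.81, with 7 of 10 at least 2-fold lower in p53-/- and 0 of 10 in p66-/- than in WT heart. Adipocyte genes averaged 8.61, 8.40 and 9.09 and myeloid genes 8.10, 7.81 and 8.99 on the p53-/-, p66-/- and WT heart arrays, and their part in these differences was not tested.

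In thymus, which genes differed 2-fold depended on the scaling of the arrays. As deposited, Txnrd1 was at least 2-fold higher in both knock-outs, with 9.88 in p53-/-, 9.89 in p66-/- and 8.70 in WT. Of the 8 genes, 1 was at least 2-fold higher in p53-/- thymus, against 8.89% of all genes, and 2 in p66-/- thymus, against 12.7%, and none was 2-fold lower, against 4.81% and 4.78%. With quantile normalization repeated and with cyclic loess, the Txnrd1 differences were 0.87 and 0.90 in p53-/- and 0.69 and 0.78 in p66-/- thymus, under 2-fold. Under these scalings 2 other genes were 2-fold lower in each knock-out, Sod2 (-1.45 and -1.28) and Gpx1 (-1.11 and -1.06) in p53-/- and Sod1 (-1.44 and -1.37) and Gpx1 (-1.02 and -1.04) in p66-/- thymus. The median of the 8 genes was -0.11 as deposited and -0.56 and -0.44 under these scalings in p53-/- thymus, and 0.26 as deposited and -0.05 and -0.17 in p66-/- thymus. The second probe set of Txnrd1 differed by 0.01 in p53-/- and by 0.00 in p66-/- thymus. Gpx3 was 1.05 higher in p66-/- than in WT thymus, 0.47 with quantile normalization repeated and 0.56 with cyclic loess. The WT thymus array that these differences rest on carried the salivary gland signal, and its thymocyte genes averaged 10.16, against 11.58 and 11.50 in p53-/- and p66-/- thymus. On the p53-/-, p66-/- and WT thymus arrays, the 18S control read 10.30, 5.97 and 10.86, and lung epithelium genes averaged 6.83, 8.52 and 7.70. Their part in these differences was not tested. Between the knock-outs, Sod1 was 1.26 higher in p53-/- than in p66-/- thymus (0.616% of all genes were 2-fold higher) and 0.55 higher by its second probe set, and Gpx3 differed by -1.14 (1.18% were 2-fold lower), or by -0.97 with cyclic loess. Between these p53-/- and p66-/- thymus arrays the 18S control read 10.30 and 5.97, and skeletal muscle genes averaged 9.50 and 6.45. Cardiomyocyte genes averaged 6.25 and 8.17 there and lung epithelium genes 6.83 and 8.52, and the part of these signals was not tested.

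In lung, Sod1 read 13.18 in p53-/-, 12.19 in p66-/- and 12.09 in WT. The difference of 1.09 between p53-/- and WT lung made it 1 of the 8 that was 2-fold higher, against 0.616% of all genes, but the second Sod1 probe set read 12.59 in p53-/- and 12.80 in WT lung. None of the 8 was 2-fold lower in p53-/- lung, against 4.14% of all genes. Cat (-0.92) and Sod2 (-0.85) lay closest below that limit. In p53-/- and WT lung, the second Cat probe set read 10.41 and 10.65 and the second Sod2 probe set 10.11 and 10.25. The third Sod2 probe set differed more, with 7.88 in p53-/- and 9.33 in WT lung. The p53-/- lung array also differed from WT lung in hepatocyte genes, at 7.14 against 10.85, and in the 18S control, at 9.79 against 5.52. The 3′ minus 5′ signal of the Gapdh control was 0.66 in p53-/-, 1.32 in p66-/- and 2.29 in WT lung. The WT lung value was the highest of the 12 arrays, and both knock-outs were set against that array. The part of these signals in the differences was not tested. In p66-/- lung, no enzyme was 2-fold different from WT, against 0.341% of all genes higher and 0.313% lower, and the 8 differences ran from -0.48 to 0.39.

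In liver, none of the 8 was 2-fold different in p53-/-, where 0.0934% of all genes were higher and 0.418% lower, or in p66-/-, where 0.0824% were higher and 0.302% lower. The 8 differences ran from -0.64 to 0.43 in p53-/- and from -0.77 to 0.46 in p66-/- liver, with Gpx3, which had its lowest signal in this tissue, at the low end of both. Outside thymus, none of the 8 differed 2-fold between p53-/- and p66-/-, where 0.143% of all genes were higher and 0.143% lower in heart, 0.236% higher and 3.14% lower in lung, and 0.104% higher and 0.11% lower in liver.

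Genes around these enzymes gave no genotype call either. Of the 30 thiol, glutathione and Nrf2 genes and the 12 peroxide sources, 0 were called in p53-/- or p66-/- against WT or between the knock-outs. Of all genes, 0.0055%, 0% and 0% were called in these contrasts, in that order, so almost no gene passed. Glrx2, the mitochondrial glutaredoxin, had fitted differences of -0.93 ± 0.18 in p53-/- (limma adjusted p = 0.185) and -0.80 ± 0.18 in p66-/- (adjusted p = 1). Its signal was 8.34, 8.61 and 8.84 in p53-/-, p66-/- and WT thymus, 8.88, 8.64 and 10.11 in p53-/-, p66-/- and WT heart, 8.05, 8.29 and 9.01 in p53-/-, p66-/- and WT lung, and 8.87, 9.13 and 9.89 in p53-/-, p66-/- and WT liver, so that the WT array was highest in every tissue. Gclm differed by -0.75 ± 0.20 in p53-/- (adjusted p = 0.297) and -0.66 ± 0.20 in p66-/- (adjusted p = 1), and Gss, which completes glutathione synthesis, by -0.54 ± 0.21 (adjusted p = 0.433) and -0.44 ± 0.21 (adjusted p = 1). Cyba, the most different peroxide source in p66-/-, differed by 0.44 ± 0.30 there (adjusted p = 1), with 11.86 in p66-/- and 10.05 in WT thymus.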

How the data were processed

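Total RNA of thymus, heart, lung and liver was extracted with Trizol, pooled from 4 mice per genotype, labelled with biotin and hybridized to Affymetrix mouse genome arrays. The labels and the study's methods describe different amplification kits. The deposited values are log2 signals that the authors made with RMA in Partek 6.5. They ran from 3.26 to 15.41, and the array medians from 6.23 to 6.42, so the distributions were not equal over the 12 arrays. The number of arrays, 12, limits the precision.

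Of 45037 non-control probe sets, 34945 named 1 gene, 932 several and 9160 none in the annotation used here. Each of 18193 genes was read by its brightest probe set. Additive fits of tissue and genotype were made with limma 3.58.1 (R 4.3.3; 6 residual degrees of freedom) and adjusted by Benjamini-Hochberg over all genes. Replicates of a tissue are its 3 genotypes and those of a genotype its 4 tissues, so p-values measure the spread between pooled arrays, which may be technical. The fit was tested on simulated data. Other probe sets, scalings, thresholds and left-out arrays were tried.

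Named genes were the listed enzymes, for likeness the 2 genes with the highest r, from the wider lists the 4 widest spans and the 3 largest differences per knock-out, and Shc1. Members and lists were chosen with earlier results of these data known.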

Additional observations from a re-analysis of the deposited data

Results flagged for a closer look

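Prdx3 in p53-/- against WT had 1 tissue far from the others. The difference was 0.7930 in lung, while it was 0.44 in thymus, 0.45 in heart and 0.43 in liver, and the gap from lung to the next tissue was 0.939 of the whole range, above the 95% limit of Dixon for 4 values. Of 16 sets of 4 differences, 1 was flagged, and chance flags about 1 in 20. The p53-/- lung array also differed from the WT lung array in hepatocyte genes (7.14 against 10.85) and in the 18S control (9.79 against 5.52), and their part was not tested.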

How the results depend on the processing

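Single arrays per group and the choice of probe set set the main limits. The tissue calls of Sod2, Sod3, Cat, Gpx1, Gpx3 and Prdx3 held with each array left out. Counts of called genes then ran from 3 to 3 in thymus, 5 to 6 in heart, 3 to 3 in lung and 4 to 4 in liver. With the second probe set, which 5 of the 8 genes have, 2 were called in heart, 1 in lung and 2 in liver. Sod2 and Cat kept their calls in heart, Sod3 in lung and Cat in liver, where Sod1 was a new call (1.01). Txnrd1 in heart turned to 0.3183. The calls of Gpx1, Gpx3 and Prdx3 could not be repeated this way, since these genes have no second probe set.

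No genotype call appeared under any alternative run across tissues. The second probe set turned the sign for p53-/- of Sod1 (-0.1306), Sod3 (0.0644) and Txnrd1 (0.1975), and for p66-/- of Sod3 (-0.1533). The mean of probe sets gave 0.0712 for Txnrd1 in p53-/-. Txnrd1 in p66-/- became -0.0521 with quantile normalization repeated, -0.0163 with cyclic loess, and, in fits chosen after seeing the data, -0.3864 without the WT thymus and p53-/- lung arrays and -0.5113 without the WT thymus and WT lung arrays. Leaving out an array or a tissue moved Txnrd1 between -0.4900 and 0.2079 in p53-/- and between -0.3918 and 0.3358 in p66-/-, Cat in p66-/- between -0.4309 and 0.0239 and Gpx3 in p66-/- between -0.6769 and 0.0268, the last 2 turning without heart. Sod1 moved between 0.1044 and 0.5804 in p53-/- and between -0.4682 and -0.0799 in p66-/-, and Sod3 between -0.3717 and -0.0900 in p53-/-, with no change of sign.

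Counts of 2-fold differences within a tissue moved most. The share of all genes was not counted at 1.5-fold, so the counts at 1.5-fold cannot be set against a background. Gpx1, Gpx3 and Prdx3 have no second probe set, so the counts with it leave these genes out and cannot check their differences. In p53-/- thymus (1, Txnrd1) they were 2 with quantile normalization repeated or cyclic loess, both other genes (Sod2 and Gpx1, lower), 0 with the second probe set or the mean of probe sets and 4 at 1.5-fold. In p66-/- thymus (2, Txnrd1 and Gpx3) they were 2 under those 2 scalings, both other genes (Sod1 and Gpx1, lower), 0 with the second probe set, where Txnrd1 was -0.0010, 1 with the mean and 4 at 1.5-fold. Between knock-outs in thymus (2) they were 1 with cyclic loess, 0 with the second probe set, 1 with the mean and 4 at 1.5-fold. In p53-/- heart (1) they were 0 under those 2 scalings and both probe set choices and 3 at 1.5-fold. In p66-/- heart (3) they were 0 under those 2 scalings and with the second probe set and 5 at 1.5-fold. In p53-/- lung (1) they were 0 with either probe set choice, with Sod1 at -0.2102 by the second probe set, and 4 at 1.5-fold. Between knock-outs in lung (0) they were 1 under each of those 2 scalings and 2 at 1.5-fold. At 1.5-fold, 1 was found in p53-/- and 1 in p66-/- liver. The cause was not tested. Tissue was a term of every genotype fit, so genotypes were paired within tissues throughout.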
